A study of Ginkgo biloba with 7 samples.

Results

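The miRNA families miR858 and miR828 were followed, together with the genes listed as their targets, in ovules of the gymnosperm Ginkgo biloba. Target genes were taken from a table that pairs miRNA names with gene IDs: a gene was a member if it was paired with a name numbered miR858 or miR828 and with no other miRNA. This gave 43 genes of the 902 listed as targets, and of the 43456 in the expression table. The miRNAs themselves were the 6 names with these numbers among the 279 in the small RNA read table. The rule used names only, and no measured value, but it was chosen with earlier results of these data known.

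Ovules came from 3 to 5 trees of the Fozhi cultivar, about 20 years old and growing outdoors, with no treatment named in the labels. The stage PD was the mature ovule while it secreted its pollination drop, the liquid droplet with which a receptive ovule catches airborne pollen. The stage PN was the pollinated ovule 1 day after pollination. The labels name 4 RNA-seq samples (2 per stage), 2 small RNA samples (1 per stage) and 1 mix of ovules at both stages, which carries the target table. In the expression table only 1 column per stage could be matched to a sample by its header (PD1 and PN1), so every comparison below sets 1 library against 1 library. No value has a replicate error and no test between stages was possible. A difference here is one between libraries. Unpollinated ovules of the later time were not among the samples, so pollination and elapsed time cannot be told apart. Since whole ovules were measured, fewer cells of a type and less RNA per cell cannot be told apart either.

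miRNAs are short RNAs that guide the cleavage or silencing of transcripts with a matching site. In Arabidopsis and other flowering plants, miR858 and miR828 act on transcripts of MYB transcription factors, many of which switch on phenylpropanoid genes for flavonols, anthocyanins and other phenolic compounds. In Arabidopsis miR828 also cuts a non-coding precursor from which small interfering RNAs against anthocyanin MYB genes are made. The target table belongs to the mixed sample and may come from sequencing of cleaved RNA ends (degradome sequencing, which the design text names), but it states no evidence for any pair. The gene IDs carry no names in the files, so whether the listed genes encode MYB proteins is not known here. For the same reason the lists of phenylpropanoid, flavonoid and lignin genes and the marker genes of ovule, pollen and photosynthetic tissue could not be formed, and the labelled tissue was not checked against markers.

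The small RNA data concerned how abundant both families were at each stage. miR858 was present at a modest level and took a larger share of reads in the PN library, whereas miR828 was barely detected in either. The small RNA libraries held 774387 counted reads in PD and 1129198 in PN. The 5 names of miR858 summed to 442 reads in PD and 1025 in PN, or 0.0571% and 0.0908% of all counted reads. The share in PN over that in PD was 1.59, with an exact conditional binomial 95% interval of 1.42 to 1.78. That interval covers counting error only, compares these libraries rather than the stages, and assumes that each read was counted once.

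Nearly all miR858 reads stood under a pair of names. ath-miR858a and ath-miR858b, both named after Arabidopsis thaliana, each had 216 reads in PD and 506 in PN. As TPM, the reads scaled to a fixed library total, these were 279 and 448. Identical counts in both libraries mean that the same reads may be counted under both names. With identical counts taken once, the family sums were 221 and 514 reads, and the ratio was 1.59 with a wider interval of 1.36 to 1.88. ath-miR858a alone had a ratio of 1.61 (1.37 to 1.89). In PD 77 names had more reads than it, and 68 in PN.

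The other names of miR858 were at the edge of detection. cme-miR858 (named after melon) and ppe-miR858 (peach) again had identical counts, 5 reads in each library, with a ratio of 0.686 and an interval from 0.158 to 2.98. aly-miR858-3p, the 3p arm named after Arabidopsis lyrata, had 0 reads in PD and 3 in PN. A count of 0 allows up to 3 reads, or 3.87 TPM in PD, so no fold was computed for it.

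miR828 was represented by a single name, vvi-miR828a (grapevine), with 3 reads in PD and 5 in PN. These are 3.87 and 4.43 TPM. The ratio of 1.14 had an interval from 0.222 to 7.36, so a severalfold difference in either direction was not detectable at this depth. Only ath-miR858a and ath-miR858b reached 50 reads over both libraries, and neither reached a ratio of 2. For comparison, 8.66% of the 127 names with at least 50 reads had a ratio of at least 2 with an interval above 1, and 7.09% had a share at most 1 in 2 of that in PD with an interval below 1. The ath-miR858 ratio was matched or exceeded by 16 of these names, themselves included, and the median ratio over the 127 names was 1.02.

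**Figure D1:**
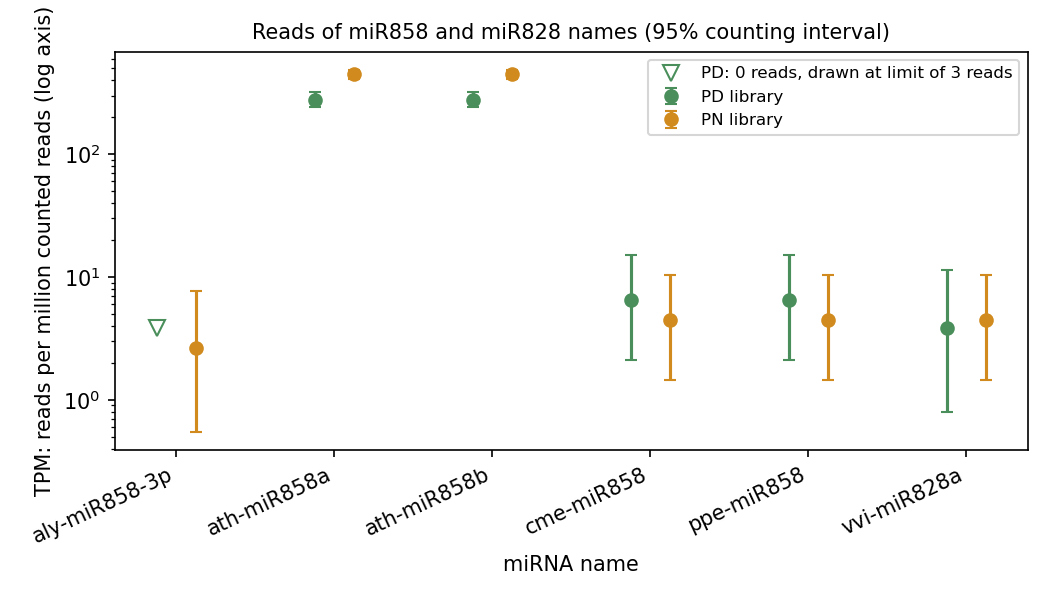
TPM (log axis) of the 6 names in the PD and PN small RNA libraries; points are single libraries and bars are exact 95% binomial intervals, which cover counting error only. ath-miR858a and ath-miR858b stand at 279 in PD and 448 in PN, while the other 4 names lie below 10 in both, and the open triangle marks the limit of 3 reads for a name with 0 reads.

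The target table divided unevenly between the families and did not follow read abundance. Of the 43 genes, 36 were listed for miR858 and 9 for miR828. The lists share 2 genes, Gb_16000 and Gb_22883, which are 5.56% of the miR858 list and 22.2% of the miR828 list. ath-miR858a had 14 of the genes and ath-miR858b 12, and together they had 23. cme-miR858 had 9 genes and ppe-miR858 had 4 (12 together), on 5 reads per library. aly-miR858-3p had 1 gene. vvi-miR828a had all 9 genes of its family on 3 and 5 reads. Of the miR858 list, 32 genes were listed under 1 name of the family and 4 under 2 names. Among the members, genes listed for ath-miR858a and for ath-miR858b overlapped in only 3 cases (Gb_09058, Gb_23187 and Gb_31197), although both names had equal read counts. Gb_19000 and Gb_37634 were also listed for both names, but were not members because each was paired with another miRNA.

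Expression levels came as FPKM, a fragment count per unit of transcript length and of sequencing depth, so that levels of different genes can be set side by side. Of the 43 genes, 39 had a mean of at least 1 FPKM over both libraries and were compared (90.7%). That share was 88.4% for all 902 listed targets and 49.0% for all genes in the table. The 4 genes below that mean were Gb_09986, Gb_16000, Gb_28533 and Gb_34386, of which 3 are on the miR828 list. No member was listed at 0 in both libraries, and Gb_34386 was the only one listed at 0 in 1 library.

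Targets of miR858 were expressed higher than those of miR828. The 33 compared genes listed for miR858 alone had a median level of 54.3 FPKM, at percentile 84.2 of all compared genes, whereas the 6 compared genes of miR828 had a median of 8.93 FPKM, at percentile 40.9. The median over all compared genes was 12.8 FPKM, and that over the 797 compared genes of all listed targets was 43.1 FPKM. A level above that of all genes was thus shared by listed targets in general.

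The stages were compared as the difference in log2(FPKM + 1), PN minus PD, on which changes of genes near 1 FPKM appear too small. The limit for calling a gene higher or lower was a difference of 1, a 2-fold change. Most members were within 2-fold: 5 were higher in the PN library, 4 were lower, and 30 were in between. As shares of the 39 compared genes, 12.8% were higher and 10.3% lower, against a background of 9.27% and 6.86% of all 21308 compared genes. Both shares are near the background and are not a result about the members. Their median difference of 0.21 is to be read against 0.11 over all compared genes. After median-of-ratios rescaling, which moved the median of all genes to 0.004, the members' median was 0.09, with the same numbers higher and lower. The background did move: of all 21308 compared genes, 1591 were then higher and 1799 lower, in place of 1976 and 1462.

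The families were then described apart, against the same background of 9.27% higher and 6.86% lower. On the miR828 list 4 of 6 compared genes were higher and 0 were lower, with a median difference of 1.31. On the miR858 list 2 of 34 were higher and 4 lower (5.88% and 11.8%), with a median of 0.17. These counts include Gb_22885 and Gb_23187, each of which passed the filter only through the library in which it was high. Without them 3 of 5 genes of miR828 were higher, and 2 of 33 genes of miR858 were higher and 3 lower. The gap of 1.14 between the medians rests on 6 genes and on the filter for low values. Without the filter, the 3 low genes of the miR828 list were included and its median was 0.063. The miR858 list, which also gained low genes, then had a median of 0.13, and the gap was -0.068. Genes of a list are not replicates, and the gap was not tested.

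**Figure D2:**
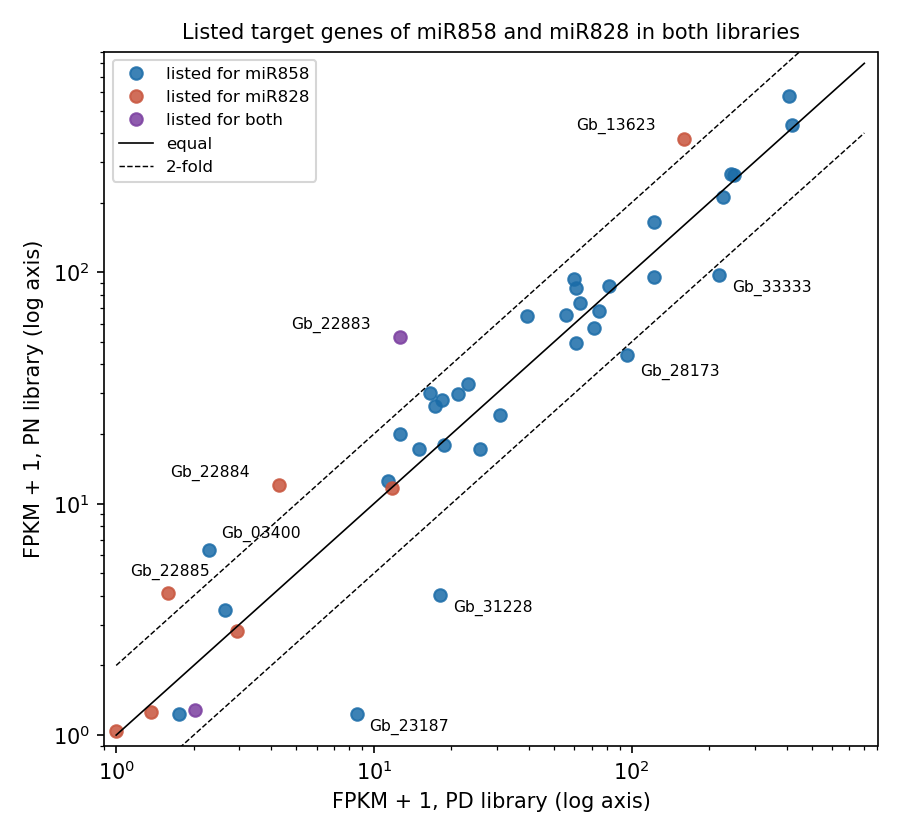
FPKM + 1 in the PD library against FPKM + 1 in the PN library (both log axes) for all 43 genes, coloured by the family they are listed for, 1 point per gene; the solid line is equality and the dashed lines are 2-fold differences. The 9 named genes lie outside the dashed lines, and 4 of the 5 above them are listed for miR828, among them Gb_22883, which is listed for both families.

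Among the miR828 genes, Gb_13623 was by far the most abundant. It stood at 158.99 FPKM at PD and 377 FPKM at PN, a difference of 1.24 on the log2(FPKM + 1) scale, or 2.36-fold. It alone held 84.3% of the summed FPKM of the miR828 list in PD and 82.7% in PN. The list's higher total in PN, 456 against 189 FPKM, was therefore mostly that of this gene, whose mean level lay at percentile 97.4 of all compared genes.

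The other 3 higher genes of the miR828 list carry consecutive ID numbers. Gb_22883, listed for vvi-miR828a and ath-miR858b, went from 11.6 FPKM in PD to 51.4 FPKM in PN, a difference of 2.06 (4.16-fold on the FPKM + 1 scale). This was the largest increase of a member with a pseudocount of 1, whereas with a pseudocount of 0.1 that of Gb_22885 was larger, at 2.22 against 2.14. Gb_22884 stood at 3.27 FPKM at PD and 11.1 FPKM at PN, a difference of 1.497. Gb_22885 stood at 0.589 and 3.12 FPKM, a difference of 1.38. All of them were higher in PN, but their levels stepped down from Gb_22883 to Gb_22885 in both libraries. Gb_22885 passed the filter only through its value in PN. Whether these genes are neighbours in the genome, or copies alike enough for fragments of one to be counted to another, is not known from the files, and they may not be independent cases. The ID numbers were looked at after the values had been seen.

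The remaining compared genes of miR828 barely differed between the libraries. Gb_34388 was at 10.7 FPKM in both, and Gb_15993 at 1.94 FPKM at PD and 1.82 FPKM at PN. The low genes were Gb_16000, with 1.02 FPKM at PD and 0.288 FPKM at PN, Gb_28533, with 0.363 and 0.263 FPKM, and Gb_34386, listed at 0 in PD and at 0.0444 FPKM in PN. Gb_16000, the other gene listed for both families, thus had the smaller value in PN, whereas Gb_22883 had the larger. The difference of Gb_16000 was -0.65, within 2-fold, and its mean FPKM was below the filter. With a pseudocount of 0.1 that difference was -1.53, past the 2-fold limit.

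The 4 decreases beyond 2-fold were all on the miR858 list, which holds 34 of the 39 compared genes. Gb_23187, listed for ath-miR858a and ath-miR858b, had the largest, from 7.58 FPKM in PD to 0.229 FPKM in PN, a difference of -2.80 (6.98-fold lower on the FPKM + 1 scale). It passed the filter only through its value in PD. Gb_09986, also listed for ath-miR858b, had the same value in PN, 0.229 FPKM, and 0.758 FPKM in PD. Its mean was below the filter, and its difference was -0.52, or -1.38 with a pseudocount of 0.1. In PD the values of Gb_23187 and Gb_09986, 7.57731 and 0.757731 FPKM, had the same digits. Whether these genes are copies alike enough to share fragments is not known from the files, and they may not be independent cases. The match was seen only after the values were known. Gb_31228, listed for ath-miR858a, went from 17.1 to 3.03 FPKM, a difference of -2.17.

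The other 2 decreases were in more abundant transcripts, listed for names with few reads. Gb_33333, listed for cme-miR858 and ppe-miR858, stood at 218 FPKM at PD and 96.1 FPKM at PN, a difference of -1.17. Gb_28173, the single gene of aly-miR858-3p, stood at 95.3 and 42.9 FPKM, a difference of -1.13. All 4 decreases remained beyond 2-fold after median-of-ratios rescaling and with pseudocounts of 0.1 or 0.5 in place of 1. Gb_03400 was the one gene listed for miR858 alone that was higher, at 1.29 FPKM at PD and 5.32 FPKM at PN, a difference of 1.47. It is listed for ath-miR858b, as is Gb_22883.

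The 5 most abundant genes listed for miR858 alone differed by less than 2-fold between the libraries. Gb_17066 stood at 409 FPKM at PD and 579 FPKM at PN, a difference of 0.50. Gb_01858 stood at 417 and 432 FPKM, and Gb_09058 at 248 and 263 FPKM. Gb_20981 was at 243 FPKM at PD and 265 FPKM at PN, and Gb_12414 at 224 and 211 FPKM. These 5 genes lie between percentiles 96.6 and 98.7 of all compared genes, and the other 4 differed by at most 0.12 in either direction on the log2(FPKM + 1) scale. The small differences of Gb_01858 (0.05) and Gb_09058 (0.09) turned to -0.066 and -0.032 after median-of-ratios rescaling, and that of Gb_20981 (0.12) to 0.01, so no direction is given for them.

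The limit of 2-fold fell in a sparse stretch of the values. Just past it on the higher side were Gb_13623 (1.24) and Gb_22885 (1.38), and just short of it Gb_06589 (0.86) and Gb_38255 (0.72). On the lower side Gb_28173 (-1.13) and Gb_33333 (-1.17) were just past it, and Gb_40341 (-0.58) and Gb_18965 (-0.37) were the next genes within it. Gb_06589, listed for cme-miR858, stood at 15.5 FPKM at PD and 28.9 FPKM at PN. Gb_38255, listed for ath-miR858a, stood at 38.1 and 63.5 FPKM.

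The values of the miR858 targets were set beside the larger share of miR858 reads in PN. Of the 34 compared genes of miR858, 22 were above 0 on the log2 scale, that is, with more FPKM in PN, and 12 below. These 64.7% compare with 56.9% of all compared genes. After rescaling the shares were 55.9% and 50.3%. The 21 compared genes listed for ath-miR858a or ath-miR858b, the names that hold nearly all the reads, had a median difference of 0.14, with 2 higher and 2 lower. The 12 genes listed for cme-miR858 or ppe-miR858 had a median of 0.32, with 0 higher and 1 lower, and 75% were above 0. After rescaling their median was 0.22, with 66.7% above 0. All compared genes had a median of 0.11 (0.004 after rescaling), with 9.27% higher and 6.86% lower. The whole miR858 list and the ath-miR858 genes were near these values. The 12 genes lay somewhat above them in median and in share above 0. A relation between miRNA and targets was not testable with 1 library per stage.

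The 43 genes were also set beside other listed targets. Genes listed for miR159 or miR319 alone were chosen for comparison because miR159 acts on another group of MYB genes in other plants. Their 40 compared genes had a median difference of 0.20, with 17.5% higher and 5% lower. Genes listed for miR482 or miR2118 alone had a median of -0.29 over 44 compared genes, with 6.82% higher and 11.4% lower. All 753 compared targets listed for neither miR858 nor miR828 had a median of 0.06, with 7.57% higher and 7.30% lower. Differences between these lists were not tested.

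**Figure D3:**
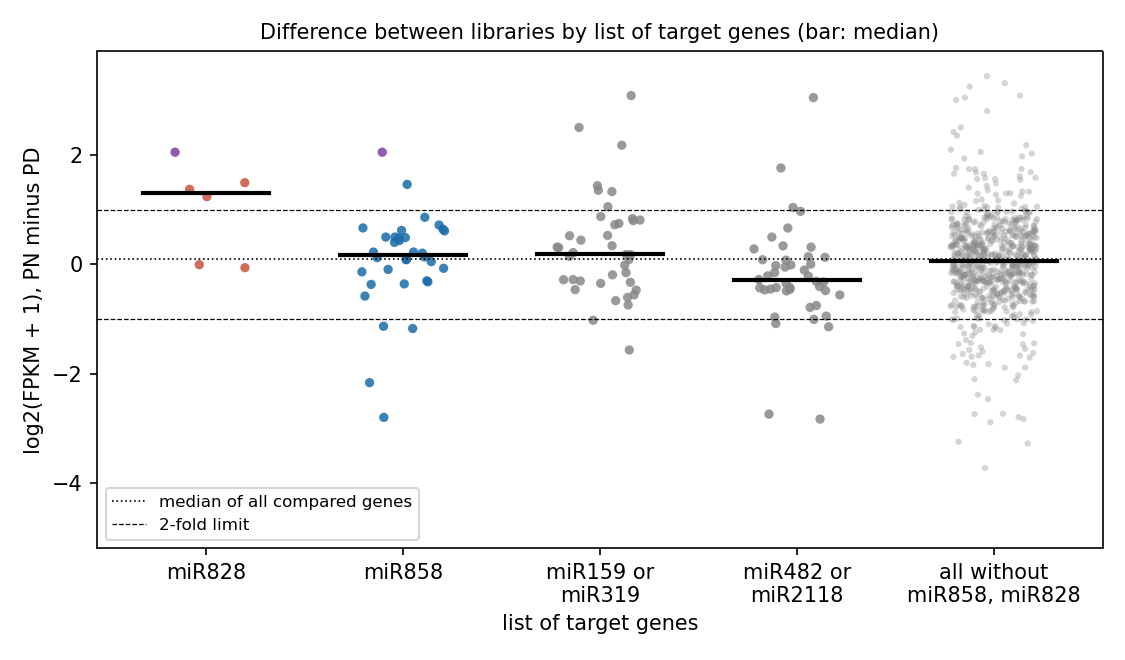
Difference in log2(FPKM + 1), PN minus PD, for the compared genes of 5 target lists, 1 point per gene and a bar at each median; purple marks the gene listed for both families, and the last list includes the miR159 or miR319 and miR482 or miR2118 genes. The miR828 median of 1.31 rests on 6 genes, while the miR858 median of 0.17 lies close to the dotted line at 0.11, the median of all compared genes.

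A further 8 genes were listed for miR858 together with another miRNA and were therefore not members. None of these was listed for miR828. Gb_14742 (also miR395), Gb_30905 (also miR396 and miR397) and Gb_37634 (also miR172) were listed at 0 in both libraries. The other 5 were within 2-fold. The largest difference among them was that of Gb_19000, also listed for miR476, which stood at 134 FPKM at PD and 69.5 FPKM at PN, a difference of -0.94 that became -1.06 after median-of-ratios rescaling. Gb_32212, also listed for miR396, stood at 348 and 298 FPKM. Gb_18743 (also miR170) was at 214 FPKM at PD and 222 FPKM at PN. Gb_35997, paired with cme-miR858 and with the authors' predicted miRNA novel_33, stood at 45.5 and 58.0 FPKM, and Gb_02940 (also miR1030) at 23.5 and 21.6 FPKM.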

How the data were processed

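The authors deposited FPKM values per gene and library. Per the submitters' processing notes, the tools included Bowtie, TopHat, TopHat2 2.0.12 and Cufflinks 2.1.1; build and annotation were not given in the sources used here. Of the value columns, 2 share the header PD2 and could not be matched to a sample by name, so they were not used in any step. The authors also deposited whole-number read counts per miRNA name and TPM values, which match the counts rescaled by each column's total to within 4.95e-05. The table does not record how a read was assigned to a name. The target table of the mixed ovules holds 1092 rows, 1084 of them distinct pairs, with no measured value.

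The members and lists were chosen with earlier results of these data known. Genes with a mean of at least 1 FPKM were compared as log2(FPKM + 1). The limma test planned for replicated columns was not used, since 1 library per stage remained. FPKM values do not give absolute depth. Over 2379 genes above 0 and under 0.5 FPKM in both libraries, the commonest ratio of values placed 1 fragment of PN at 0.848 times its worth in PD, a relative depth of 1.18; 63.8% of their ratios, so corrected, came within 1% of a fraction formed from the integers 1 to 4. Ratios of miRNA shares have exact conditional binomial intervals (95%, Clopper-Pearson). The calculations used Python 3.11.15, numpy 2.4.6 and scipy 1.17.1 and were tested on simulated data. Named were all miR858 and miR828 names, all miR828 targets, all members beyond 2-fold, the 5 most abundant miR858 targets, those next to the limit, those listed for both families, those at 0 in 1 library, and genes shared with other miRNAs. Gb_09986 was added for its match with Gb_23187, and a few others stand only in lists of IDs.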

Additional observations from a re-analysis of the deposited data

How the results depend on the processing

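No paired analysis was possible because the expression table has 1 column per stage whose header names a single sample, and the fits without each replicate were not run for the same reason. The medians, counts and ratios were recomputed with pseudocounts of 0.1 and 0.5, no FPKM filter, a mean of at least 5 FPKM, median-of-ratios and quantile scaling, and with genes shared with other miRNAs; an alternative chosen after seeing the data left out the genes that passed the filter only through 1 library. The read ratios were recomputed with median-of-ratios scaling, shares outside miR166, identical counts once and the largest name alone. Of 56 such values, 53 kept their direction and their side of 2-fold (counts within 1.5 times, ratios within their interval). Some of the 53 could not change, since miR828 has 1 name and no gene shared with another miRNA. The miR828 ratios were held to an interval from 0.222 to 7.36, which is too wide to show a change. Without the FPKM filter, which added genes of low expression to both lists (3 to that of miR828), the median of miR828 targets was 0.063. That of miR858 targets was 0.13, and the gap between the families -0.068. With at least 5 FPKM, 3 members in place of 5 were higher, because Gb_03400 and Gb_22885 were then not compared. The count over all compared genes fell as well, from 1976 to 1349 higher. Single-gene values were recomputed for 23 genes only. Among these, the sign turned for Gb_01858 (-0.066 under median-of-ratios and -0.12 under quantile scaling), Gb_09058 (-0.032 and -0.10) and Gb_20981 (-0.066 under quantile scaling). Outside them, the member Gb_27595, listed for cme-miR858, went from 0.09 to -0.026 under median-of-ratios scaling. The ratio of miR858 lay between 1.59 and 1.70 and that of miR828 between 1.14 and 1.22. Depth limits miR828, with 3 and 5 reads.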

Other observations

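The IDs on either side of the run from Gb_22883 to Gb_22885 had the following values. Gb_22882 was listed at 0 FPKM at PD and 0.0274 FPKM at PN, and Gb_22886 stood at 29.9 FPKM at PD and 12.5 FPKM at PN, a difference of -1.20 in log2(FPKM + 1). Neither is listed for miR828 or miR858. Of the ID pair Gb_34386 and Gb_34388, also listed for miR828, the second was at 10.7 FPKM in both libraries, and Gb_34387 between them was listed at 0 in both. These IDs were looked at after the values of the listed genes had been seen.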
